A study of Mus musculus with 8 samples.

Results

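Vegfa, Vegfb, Vegfc, Pgf, Adm and Angpt2, secreted factors that act on blood and lymphatic vessels, were followed by symbol through single-cell RNA counts of a mouse small cell lung cancer grown at 3 body sites. They are 6 of the 22056 genes in the count matrices, and all 6 were found. The cell line, N2N1G, is a mouse small cell lung cancer line. Each allograft received 1000000 of these cells and was harvested after 3 weeks. Brain and subcutaneous tumours were made by direct injection and liver tumours by injection into the tail vein, so the route of delivery differed as well as the organ. No drug or second genotype was compared: the 2 brain, 3 liver and 3 subcutaneous libraries all carried the same line, and the strain and age of the recipient mice are not given in the sources used here. Labels number the allografts of a site but do not state that each came from its own mouse, so p-values measure the spread between these libraries, some of which may be technical.

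Vegfa is the main growth and permeability signal for endothelial cells and acts through Kdr and Flt1, with the neuropilins as co-receptors. Vegfb and Pgf bind Flt1 but not Kdr, and Vegfc acts mainly on Flt4, the receptor of lymphatic endothelium. Adm, adrenomedullin, is a vasodilating peptide that signals through Calcrl paired with Ramp2 or Ramp3, and Angpt2 is a ligand of Tek that loosens the contact between endothelium and pericytes. Vegfa and Adm are textbook targets of the hypoxia-inducible factors, which accumulate when oxygen falls, whereas Vegfb is known for little response to oxygen.

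The matrices held 38460 cells and 372293350 unique molecular identifiers (UMIs, 1 per captured transcript 3′ end). Filters of 500 or more detected genes and no more than 10% of UMIs from mitochondrial genes left 36797 cells. Tumour cells were the 34719 cells in which eGFP and Mycl made up at least 0.2% of UMIs. The other 2078 cells were clustered, and 868 of them fell in clusters named as a host cell type. Tumour UMIs per library ran from 21689091 to 62047017. A further 430 cells lay just under the threshold, at 0.1 to 0.2%, and 708 just above it, at 0.2 to 0.3%. Between libraries, 882 of 37556 distinct cell barcodes were shared. Subcutaneous replicate 1 stood apart from its 2 companions: the chi-square per gene between it and them was 87.1 and 72.4, against 6.13 between replicates 2 and 3. The brain pair gave 22.4, and the liver pairs 27.8 (replicates 1 and 2), 68.6 (1 and 3) and 37.1 (2 and 3). Subcutaneous replicates 2 and 3 were thus more alike than any other pair within a site, and liver replicates 1 and 3 also lay far apart. Host cells were uneven, with 505 and 201 named host cells in brain, 9 to 20 in each liver library, and 121, 1 and 0 in subcutaneous replicates 1, 2 and 3.

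Levels are given as CPM, the UMIs of a gene per 1000000 UMIs of the same cells. Because 1 tag is counted per molecule, these levels need no division by gene length, although capture differs between genes. Over all tumour cells of the 8 libraries together the order was Vegfb at 66.0 CPM, Vegfa at 16.4, Angpt2 at 7.69, Adm at 3.03, Pgf at 1.44 and Vegfc at 0.284. Vegfc rests on 102 UMIs in 34719 cells. The order below Vegfb differed between libraries: Angpt2 exceeded Vegfa in brain replicate 2 and liver replicate 3, Adm was below Pgf in both brain libraries and liver replicate 2, and Adm was below Vegfc in brain replicate 2. All 6 are protein-coding genes. On the mm10 build (GENCODE M21 annotation) Vegfa lies at chr17:46016993-46032369 on the minus strand, Vegfb at chr19:6982473-6987651 on the minus strand, Vegfc at chr8:54077606-54187096 on the plus strand, Pgf at chr12:85166635-85177790 on the minus strand, Adm at chr7:110627661-110629820 on the plus strand and Angpt2 at chr8:18690263-18741562 on the minus strand.

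Vegfa and Adm moved together in what follows, so the 250 bases upstream of their start sites are shown, taken from RefSeq on GRCm38.p6. The Adm stretch is chr7:110627407-110627656 on the plus strand, and the Vegfa stretch, for the first listed start, is chr17:46032378-46032627 on the minus strand. Capitals mark the core of the hypoxia response element, searched as ACGTG and GCGTG on both strands, so that CACGT and CACGC are the same cores read from the other strand. Cores can share bases: CACGTG reads as a core on both strands.
Adm: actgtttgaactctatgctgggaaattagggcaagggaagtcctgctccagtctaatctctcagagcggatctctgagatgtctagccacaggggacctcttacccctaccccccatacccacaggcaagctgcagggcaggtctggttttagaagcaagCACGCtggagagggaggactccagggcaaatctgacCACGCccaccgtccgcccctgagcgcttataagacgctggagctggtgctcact
Vegfa: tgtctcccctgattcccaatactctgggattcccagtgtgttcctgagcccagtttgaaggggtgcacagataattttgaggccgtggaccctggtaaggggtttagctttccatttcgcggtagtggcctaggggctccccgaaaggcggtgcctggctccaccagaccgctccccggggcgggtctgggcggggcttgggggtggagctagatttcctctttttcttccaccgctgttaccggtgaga
The Adm stretch held 2 cores, starting at -90 and -54 from the start site, and the Vegfa stretch held 0. At least 1 core was found in 38.6% of the 32851 RefSeq mouse promoter windows of this length and at least 2 in 16.7%. RefSeq entries matched 5 members, with 7 start sites between them: a second, internal Vegfa start had 2 cores, Vegfb had 2, the Pgf starts had 1 and 0, and Vegfc had 0. A match describes letters only, and its absence says that these letters are not in this window. Angpt2 is named only.

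Vegfa and Adm were higher in tumour cells under the skin than in the brain, and every subcutaneous library was above every liver library. Vegfa stood at 9.87 and 4.86 CPM in the brain libraries, 12.7, 8.30 and 6.37 CPM in the liver libraries, and 35.7, 24.7 and 22.2 CPM in the subcutaneous libraries. The lowest subcutaneous library was above every other one, while brain and liver overlapped and did not pass a test between them (log2 difference -0.46, SE 0.38, edgeR adjusted p = 0.431). In edgeR's quasi-likelihood fit over 13931 genes, Vegfa was lower in brain than under the skin by a log2 difference of -1.93 (SE 0.40, n = 2 and 3, edgeR adjusted p = 0.0175). Between liver and subcutaneous tumours the log2 difference was -1.47 (SE 0.33, n = 3 and 3), with an edgeR adjusted p of 0.0545, and it passed the threshold with DESeq2 (adjusted p = 0.000156). Without brain replicate 2 the brain difference was -1.48 and no longer passed (edgeR adjusted p = 0.0953), and without subcutaneous replicate 1, the library that stood apart, it was -1.71 and passed (edgeR adjusted p = 0.00966).

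Adm counted 0.968 and 0.258 CPM in brain, 1.40, 0.962 and 1.01 CPM in liver, and 3.96, 6.87 and 5.86 CPM in the subcutaneous libraries. Again each subcutaneous library exceeded each of the others, and brain and liver overlapped. Adm was lower in brain than under the skin by a log2 difference of -3.29 (SE 0.51, edgeR adjusted p = 0.00572) and lower in liver than under the skin by -2.19 (SE 0.38, edgeR adjusted p = 0.025). Adm did not pass between brain and liver, where the log2 difference was -1.10 (SE 0.50, edgeR adjusted p = 0.145). Brain replicate 1 decided that last call, since without it the difference was -2.20 and passed (edgeR adjusted p = 0.0422). The liver difference lost its call without liver replicate 1, 2 or 3 or subcutaneous replicate 2 or 3 (edgeR adjusted p = 0.0904, 0.149, 0.0698, 0.0813 and 0.0611), with values from -2.38 to -2.01. Without subcutaneous replicate 1 both differences passed, at -3.54 (edgeR adjusted p = 0.000245) and -2.38 (edgeR adjusted p = 0.00307). Fibroblast markers summed to 25.1 CPM in the tumour cells of subcutaneous replicate 1 and to 1.26 and 1.62 CPM in replicates 2 and 3, beside 3.96, 6.87 and 5.86 CPM of Adm, and their part in the Adm levels was not tested. Of the 6 fibroblast markers, 0, 0 and 3 were at 0 in those 3 libraries.

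**Figure D1:**
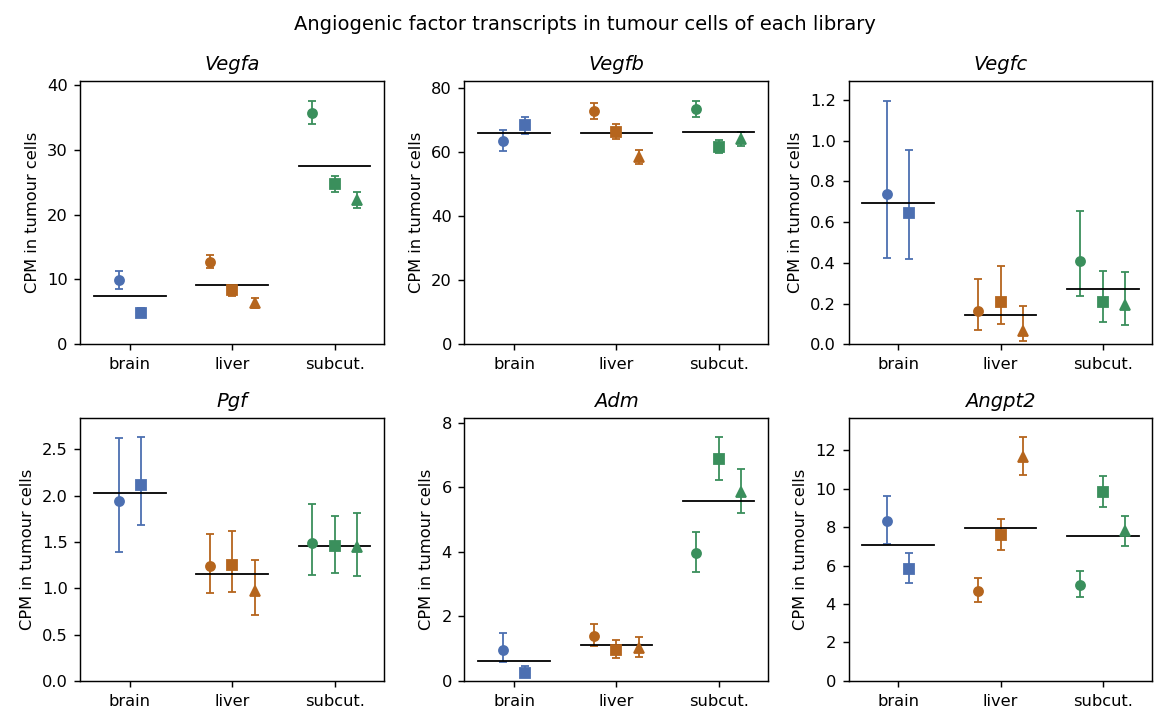
Level of each factor in tumour cells of each library, in CPM (vertical axis, linear, from 0) by site (horizontal axis). Circles, squares and triangles are replicates 1, 2 and 3, bars are exact 95% Poisson intervals for counting error only, and black lines are site means; the subcutaneous libraries sit above the rest for Vegfa (22.2 to 35.7) and Adm (3.96 to 6.87), while Vegfb lies between 58.5 and 73.6 at all sites.

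Vegfb, the most abundant member, was level across sites. Its libraries read 63.6 and 68.4 CPM in brain, 72.9, 66.4 and 58.5 CPM in liver, and 73.6, 61.8 and 64.1 CPM under the skin, with site means of 66.0 ± 3.4 (SD, n = 2), 66.0 ± 7.23 (SD, n = 3) and 66.5 ± 6.23 (SD, n = 3). The 3 log2 differences between sites lay between -0.11 and 0.10, each with an SE of 0.12 to 0.13. None passed the test. Angpt2 varied more within a site than between sites: 8.30 and 5.84 CPM in brain, 4.70, 7.59 and 11.7 CPM in liver, and 5.01, 9.83 and 7.78 CPM under the skin. Its groups overlapped in every pair, and its 3 log2 differences, from -0.29 to 0.18, did not pass.

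The lowest members went the other way. Vegfc gave 16 and 25 UMIs in the brain libraries, 8, 10 and 3 in liver and 17, 13 and 10 under the skin, or 0.738 and 0.646 CPM against 0.162, 0.209 and 0.0648 CPM and 0.408, 0.210 and 0.193 CPM. Both brain libraries were above all others. Vegfc was higher in brain than in liver by a log2 difference of 2.10 (SE 0.57, edgeR adjusted p = 0.0296). Against subcutaneous tumours the difference was 1.36 (SE 0.54, edgeR adjusted p = 0.123), and it passed without subcutaneous replicate 1, at 1.75 (edgeR adjusted p = 0.0221). The liver call was lost without any 1 of the 5 brain and liver libraries, at edgeR adjusted p of 0.119 and 0.105 without brain replicates 1 and 2 and 0.0777, 0.0529 and 0.0666 without liver replicates 1, 2 and 3.

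Pgf was at 1.94 and 2.12 CPM in brain, 1.24, 1.25 and 0.971 CPM in liver, and 1.49, 1.45 and 1.45 CPM under the skin. The sites did not overlap, with brain highest and liver lowest. The log2 differences, 0.70 for brain against liver (SE 0.24, edgeR adjusted p = 0.0683), 0.47 for brain against subcutaneous (SE 0.24, edgeR adjusted p = 0.214) and -0.22 between liver and subcutaneous tumours (SE 0.22, edgeR adjusted p = 0.650), did not pass. Without subcutaneous replicate 1 the first was 0.70 and passed (edgeR adjusted p = 0.0362). An exact permutation test of the CPM over the 560 assignments of libraries to 3 sites, unadjusted for the 6 genes, gave Pgf p = 0.00357, against 0.025 for Vegfa, 0.00714 for Adm and for Vegfc, 0.982 for Vegfb and 0.964 for Angpt2.

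These calls have to be read against how many genes differed. Over all genes tested, 21.8% were called between brain and liver, 15.1% between brain and subcutaneous tumours and 2.83% between liver and subcutaneous tumours. Of the 6 members, 1, 2 and 1 were called in those comparisons. The groups did not overlap for 2, 4 and 3 members, and for 53.2, 46.8 and 27.7% of all genes tested. Member calls made without subcutaneous replicate 1 stand against a larger background. Without it, 4557 of 13856 genes were called between brain and liver, against 3032 of 13931 with all libraries. The counts were 4754 against 2099 between brain and subcutaneous tumours, and 1024 against 394 between liver and subcutaneous tumours.

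Host transcripts in the tumour sums differed between sites. The 8 macrophage markers summed to 321 and 48.1 CPM in brain, 4.47 to 9.76 CPM in liver and 1.90 to 32.4 CPM under the skin, with none at 0 except 1 marker in subcutaneous replicate 3. The 7 endothelial markers summed to 25.8 and 8.37 CPM in brain, 8.49 to 9.95 CPM in liver and 9.0 to 9.93 CPM under the skin, with 0 of 7 at 0 in brain and in subcutaneous replicate 1 and 1 or 2 at 0 in the others. The 6 pericyte or smooth muscle markers summed to 1.80 and 0.749 CPM in brain. They gave 0.364 to 3.74 CPM in liver and 0.322 to 3.88 CPM under the skin. The 6 oligodendrocyte lineage markers summed to 223 and 156 CPM in brain. They gave 42.3 to 47.8 CPM in liver and 38.5 to 42.3 CPM under the skin. At most 3 of 6 were at 0 in a library for either list. Macrophage and oligodendrocyte lineage transcripts were thus highest in brain, where Vegfc and Pgf were highest. The pericyte sums overlapped between sites, and the endothelial sums of brain replicate 2 lay with those of the other sites. The part of host transcripts in the site differences was not tested.

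Around the members, 67 genes of blood vessel signalling and oxygen sensing were listed, of which 54 were tested between sites. Between brain and liver 15 were higher in brain and 7 lower, with a median log2 difference of 0.50 against 0.00 over all genes, where 13.2% were higher and 8.56% lower. Nrp1, a Vegf co-receptor, was higher in brain at 11.6 and 10.0 CPM against 2.21, 1.61 and 2.50 CPM (log2 2.24, SE 0.31, edgeR adjusted p = 0.00217). Calca, the calcitonin gene-related peptide of the adrenomedullin family and a neuroendocrine marker, was higher at 130 and 147 CPM against 52.6 to 74.4 CPM, and Dll4, a Notch ligand of sprouting vessels, at 42.0 and 35.7 CPM against 18.1 to 24.2 CPM. Egln3, an oxygen-dependent prolyl hydroxylase that the hypoxia-inducible factors induce, was lower in brain at 10.2 and 9.95 CPM against 25.2 to 29.3 CPM, as were the signalling inhibitor Spry1 and the growth factor Tgfa. Of the 7 adrenomedullin pathway genes, 5 were tested and 4 were higher in brain than in liver. Dendritic cell markers, whose cells carried the receptor part Ramp3, summed to 193 and 110 CPM in brain against 0.830 to 34.3 CPM in liver, with at most 2 of 6 at 0 in either site, and their part was not tested.

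Against subcutaneous tumours, 8 of the 54 were higher in brain and 6 lower (8.94 and 6.13% of all genes), and between liver and subcutaneous tumours 0 were higher in liver and 4 lower (0.933 and 1.90% of all genes). Egln3 had the largest of these named differences, at 59.7, 88.5 and 75.4 CPM under the skin, a log2 difference of -2.89 from brain (SE 0.18, edgeR adjusted p = 0.000165) and of -1.35 from liver (SE 0.14, edgeR adjusted p = 0.00356). Calca was higher in brain than under the skin (log2 0.79), and Spry1 and Tgfa were lower (log2 -1.25 and -0.57). Dll4 was lower in liver than under the skin (log2 -0.74, edgeR adjusted p = 0.0211).

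A separate list of 21 hypoxia-induced genes, which holds no member but shares Egln3 and Egln1 with the oxygen sensing genes and includes Slc2a1, Bnip3, Car9, Ndrg1 and Ldha, was highest under the skin and lowest in brain. It summed to 1841 and 2098 CPM in the brain libraries, 2706, 2738 and 2837 CPM in liver, and 4160.5, 5377 and 4605 CPM under the skin. No library of 1 site overlapped another site. The exact permutation test over the 3 sites gave p = 0.00357, the smallest that 560 assignments can give here, and each pair of sites gave p = 0.1, the smallest that libraries this few allow. Of the 21 genes, 17 were lower and 1 higher in brain than under the skin, 9 lower and 3 higher in brain than in liver, and 13 lower and 0 higher in liver than under the skin.

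To see which tumour cells held the transcripts, the tumour cells of each library were ranked by the UMIs of that list. Every cell was reduced at random to 3000 UMIs, so that 970 shallower cells of 34719 had no score. The ranking gives no position in the tissue. The cells nearest the top 10% of each library were called hypoxia-high. This class is a range of a score, not a cell type, and its lower bound differed between sites: 11 and 13 list UMIs in brain, 15 to 16 in liver and 33 to 38 under the skin. The list level in hypoxia-high and other cells was 5762 and 1467 CPM in brain replicate 1, 6312 and 1691 CPM in brain replicate 2, 5761 to 6179 and 2413 to 2522 CPM in liver, and 13970.3 to 14924 and 3239 to 4450.1 CPM under the skin. Median mitochondrial shares were 1.81 to 2.72% in hypoxia-high cells and 2.25 to 2.96% in the others.

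Hypoxia-high cells carried more Adm and Vegfa in every one of the 8 libraries. Vegfa stood at 44.7 CPM in hypoxia-high and 6.68 CPM in other cells of brain replicate 1, and at 21.7 and 3.24 CPM in brain replicate 2. In liver the pairs were 21.7 and 11.9, 19.1 and 7.10, and 16.5 and 5.22 CPM, and under the skin 142 and 24.9, 87.8 and 18.4, and 90.5 and 16.3 CPM. The ratio within a library ran from 1.83 in liver replicate 1 to 6.70 in brain replicate 2. With the library as a block over 11748 genes, Vegfa was higher in hypoxia-high cells by a log2 difference of 2.16 (SE 0.22, higher in 8 of 8 libraries, edgeR adjusted p = 0.000312).

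Adm was the more concentrated of the pair. It gave 8.07 against 0.257 CPM and 2.64 against 0.0284 CPM in brain, 7.24 against 0.839, 5.0 against 0.555 and 3.81 against 0.738 CPM in liver, and 29.6 against 1.56, 45.4 against 2.97 and 46.0 against 2.39 CPM under the skin. The log2 difference was 3.90 (SE 0.24, higher in 8 of 8 libraries, edgeR adjusted p = 7.88e-07). The class held 7.85 to 9.24% of the scored cells' UMIs in a library, but 32.6 to 90.0% of their Adm UMIs and 13.9 to 39.4% of their Vegfa UMIs. Brain counts were small: brain replicate 2 gave 9 Adm UMIs in hypoxia-high cells and 1 in the others, a ratio of 93.0 with an exact 95% counting interval of 12.9 to 4074, and the fitted value there depends on the prior count.

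**Figure D2:**
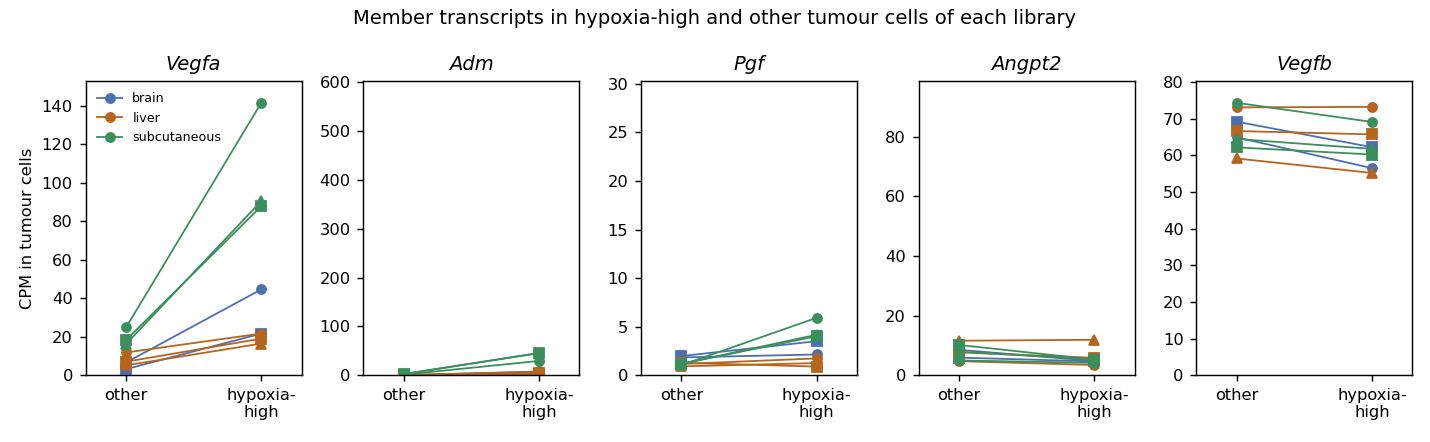
Level of 5 factors in hypoxia-high and other tumour cells, in CPM (vertical axes, linear, from 0, scaled per gene); each line joins the 2 values of 1 library, coloured by site, with circles, squares and triangles for replicates 1, 2 and 3. All 8 lines rise for Vegfa and Adm, 7 of 8 fall for Angpt2, and Vegfb stays between 55.2 and 74.3 CPM. The axes of Adm, Pgf and Angpt2 extend past host values that are not drawn (557, 28.0 and 91.4 CPM), so their lines lie low in the panel.

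Pgf rose as well in this comparison, by a log2 difference of 1.23 (SE 0.29, edgeR adjusted p = 0.00536). It was higher in hypoxia-high cells of 7 of 8 libraries, reaching 5.92, 4.03 and 4.18 CPM under the skin against 1.06 to 1.20 CPM in the other cells there. In liver it read 1.75, 0.909 and 1.27 CPM against 1.17, 1.3 and 0.929 CPM, on 4 to 7 UMIs per hypoxia-high sum. Angpt2 was lower by 0.38 on the log2 scale (log2 difference -0.38, SE 0.12, edgeR adjusted p = 0.0278), in 7 of 8 libraries, liver replicate 3 being the exception. That call was lost without subcutaneous replicate 2 (-0.29, edgeR adjusted p = 0.108) or replicate 3 (-0.37, edgeR adjusted p = 0.0657), with DESeq2 (adjusted p = 0.05005) and when the top 20% formed the class (-0.16, edgeR adjusted p = 0.230). Vegfb did not pass, with a log2 difference of -0.02 (SE 0.05, edgeR adjusted p = 0.753). Vegfc was too low to be tested. Thus 4 of the 5 members tested were called, in a comparison in which 34.9% of all genes were called.

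Of 65 listed genes outside the hypoxia list, 28 were tested here, and 6 rose and 5 fell (19.0 and 15.9% of all genes). Adm2, or intermedin, a second ligand of the same receptors, rose most, by a log2 difference of 2.36 (SE 0.21, edgeR adjusted p = 2.38e-05), from 2.25 to 5.42 CPM in other cells to 27.3 to 28.7 CPM in hypoxia-high cells under the skin. Vhl, which marks the hypoxia-inducible factors for destruction, rose by 0.48, Tgfa by 0.41 and Arnt, the partner subunit of those factors, by 0.41. Col18a1, the source of endostatin, changed by -0.85, Arnt2 by -0.60, Dll4 by -0.53, the guidance factor Sema3e by -0.44 and the vasohibin Vash2 by -0.23. These named genes were detected in all 16 sums.

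The size of the hypoxia-high difference itself depended on the site. For Vegfa the log2 difference was 2.81 in brain (SE 0.18), 1.32 in liver (SE 0.13) and 2.47 under the skin (SE 0.08). The interaction of class and site was called for Vegfa (edgeR adjusted p = 5.28e-08), Adm (edgeR adjusted p = 0.000867) and Pgf (edgeR adjusted p = 0.00432), 3 of 5 members, where 23.5% of all genes were called. Vegfa differed between brain and liver by 1.48 (SE 0.21, edgeR adjusted p = 3.20e-05) and between liver and subcutaneous tumours by -1.14 (SE 0.15, edgeR adjusted p = 1.27e-07). For Adm the values were 5.39, 2.96 and 4.18 (SE 0.57, 0.27 and 0.15), with a difference of 2.43 between brain and liver (edgeR adjusted p = 0.0491) and of -1.22 between liver and subcutaneous tumours (edgeR adjusted p = 0.00152). For Pgf they were 0.69, 0.25 and 2.05 (SE 0.45, 0.41 and 0.28), with differences of -1.36 between brain and subcutaneous (edgeR adjusted p = 0.0435) and -1.80 between liver and subcutaneous tumours (edgeR adjusted p = 0.00271).

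The brain against liver contrast was called for 0.834% of genes, brain against subcutaneous for 16.4% and liver against subcutaneous for 23.4%. The score range moved with these differences, as the list levels above show, with the smallest step of the list between classes in liver, and its part was not tested. The Adm difference between brain and liver was lost without 6 of the 8 libraries (edgeR adjusted p from 0.0350 to 0.339, called without subcutaneous replicate 1 or 3). The Pgf difference between brain and subcutaneous tumours was lost without 6 of 8 (edgeR adjusted p from 0.0482 to 0.199, called without liver replicate 3 or subcutaneous replicate 2).

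Levels were then set side by side at equal list counts. Cells were placed in 6 bins by their list UMIs per 3000, from 0 to 4 up to 35 to 102, and each library's level was averaged over bins with the same weights, a comparison chosen after seeing the data. In the lowest bin Vegfa was between 2.66 and 8.70 CPM and Adm between 0 and 0.696 CPM over all 8 libraries. In the bin of 17 to 34 list UMIs Vegfa read 57.0 and 22.2 CPM in brain, 22.1, 20.8 and 15.7 CPM in liver and 84.6, 38.8 and 41.3 CPM under the skin, so brain replicate 1 exceeded subcutaneous replicates 2 and 3. In the highest bin Adm was between 19.1 and 46.0 CPM in all libraries, where liver overlapped both other sites and both brain libraries were below the subcutaneous ones. These levels rest on 3 and 5 Adm UMIs in brain and 3, 3 and 2 in liver, too few to order the sites, against 102, 267 and 187 under the skin.

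The standardised Vegfa level was 22.0 and 10.6 CPM in brain, 15.3, 13.1 and 8.90 CPM in liver and 29.5, 15.3 and 16.8 CPM under the skin, and the exact permutation test over sites gave p = 0.35 (unadjusted). Brain replicate 1 then exceeded all 3 liver libraries and subcutaneous replicates 2 and 3. Adm, at site means of 2.49 ± 1.65 (SD, n = 2), 2.85 ± 0.517 (SD, n = 3) and 3.43 ± 0.432 CPM (SD, n = 3), gave p = 0.5 in the same exact test. The highest bin held 14 cells of brain replicate 1 and 8 to 10 cells of each liver library. Without it, exact permutation p was 0.425 for Vegfa and 0.904 for Adm. Vegfc kept p = 0.00714 with all bins and 0.0357 without the highest, and Pgf went to 0.0679 and 0.0143, all exact permutation values. A p that misses the threshold does not show equal levels: after standardising, the subcutaneous mean of Vegfa was still above the others, at 20.5 ± 7.78 (SD, n = 3) against 16.3 ± 8.09 (SD, n = 2) in brain and 12.4 ± 3.23 CPM (SD, n = 3) in liver. Outside the hypoxia-high cells, Adm was lower in brain than under the skin by a log2 difference of -4.26 (SE 0.66, edgeR adjusted p = 0.00653) and Vegfa by -2.04 (SE 0.43, edgeR adjusted p = 0.0198). The Adm difference between liver and subcutaneous tumours was -1.59 there and did not pass (edgeR adjusted p = 0.108). These cells were not matched on the list, which stood at 1467 and 1691 CPM in brain, 2413 to 2522 CPM in liver and 3239 to 4450.1 CPM under the skin. The brain side held 5 and 1 Adm UMIs.

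**Figure D3:**
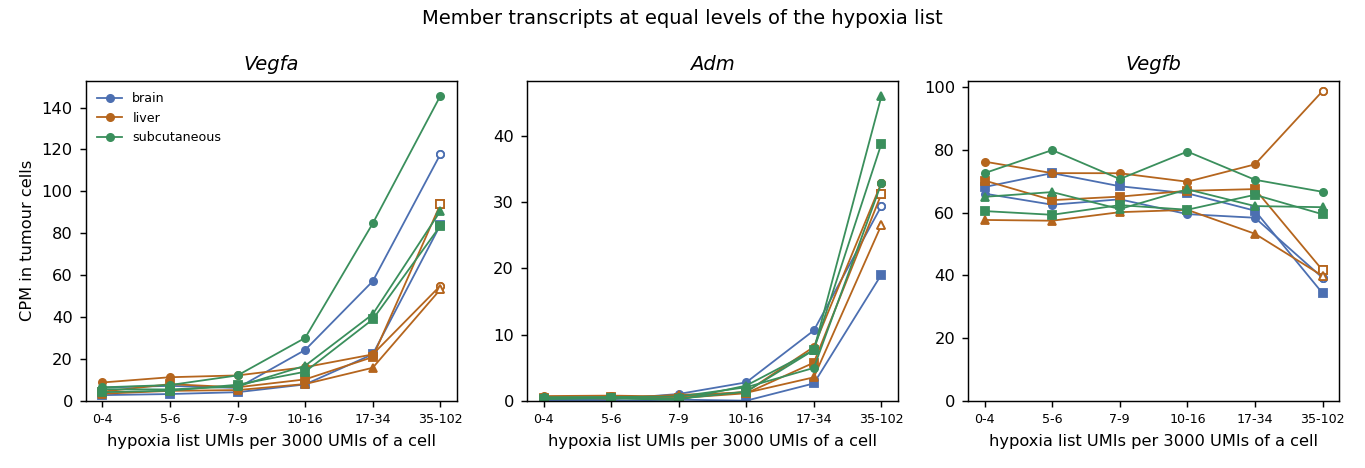
Level of Vegfa, Adm and Vegfb in tumour cells (vertical axes, CPM, linear from 0) by the number of hypoxia list UMIs per 3000 UMIs of a cell (horizontal axis, 6 bins); each line is 1 library, coloured by site, and open symbols are bins with fewer than 20 cells. Vegfa and Adm rise along the list at every site, and Vegfb shows no rise common to the libraries.

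Which genes ran most like a member was asked over 160 groups of tumour cells, 20 per library, with levels centred within each library. Groups share depth and sequencing within a library, so the correlations are descriptions only. Vegfa was most like Ets2, a transcription factor (Pearson r = 0.688), Bnip3, a mitophagy gene of the hypoxia list (0.687), Trib3 and Atf3, both stress response genes (0.658 and 0.631), and Rrbp1 (0.631). Over the 141 groups of at least 200000 UMIs, a restriction chosen after seeing the data, the leading genes were Slc16a3, a lactate exporter (0.832), Alkbh5 (0.800), Gtpbp2 (0.797), Cebpg (0.797) and P4ha1, a collagen prolyl hydroxylase (0.795), so the 5 names depend on small groups. Adm with Vegfa gave 0.594 and 0.710 in the respective sets. Vegfb was most like Csnk1e (0.874), Ss18 (0.873), Brd3 (0.852), Flna (0.850) and Plxnb2 (0.845), and in the larger groups Mta1 (0.767), Ube2m (0.757) and Csnk1e (0.749) led, with Gsk3a (0.737) and Tmem259 (0.736). Vegfb with Vegfa gave 0.224 and 0.185.

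Levels of the factors differed between host clusters, and some clusters held more of a factor than tumour cells. Counts per host type were summed over libraries, with exact 95% Poisson intervals that cover counting error only and no test. The 82 endothelial-like cells, 73 of them from brain, held Angpt2 at 84.5 CPM (55.7 to 122.9, 27 UMIs in 6 cells), Adm at 50.1 CPM (28.6 to 81.3, 16 UMIs in 4 cells) and Vegfc at 12.5 CPM (3.41 to 32.0, 4 UMIs). The 16 pericyte or smooth muscle-like cells held Angpt2 at 128 CPM (69.7 to 214, 14 UMIs) and Pgf at 118 CPM (63.1 to 203, 13 UMIs in 10 cells). Tumour cells stood at 7.69 CPM for Angpt2 and 1.44 CPM for Pgf, below both intervals of the pericyte cluster.

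Adm was highest in 1 fibroblast-like cluster led by Dcn, Mfap5, Clec3b and Pi16, all 70 cells of which came from subcutaneous replicate 1. It held 337 Adm UMIs, or 1210.4 CPM (1085 to 1347), in 44 of the 70 cells. In the same library the 34 dendritic-like cells had 0 Adm UMIs in 259492, which allows up to 11.6 CPM, and 65 unnamed monocyte-gene cells had 0 in 388250, which allows up to 7.73 CPM. The tumour cells of that library had 3.96 CPM, in 2.00% of cells at a median depth of 9392.5 UMIs, against 62.9% of the fibroblast-like cells at a median of 3664.5. The same cluster held Pgf at 46.7 CPM (24.9 to 79.8), from 13 UMIs in 3 cells. A second fibroblast-like cluster of 15 brain cells had 2 Adm UMIs, both in 1 cell.

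Vegfa was low in most host cells. The 360 microglia-like cells, which include a cluster led by the activation genes Spp1, Il1a and Ccl4, had 2 Vegfa UMIs in 1881648, or 1.06 CPM (0.129 to 3.84), although their Vegfb was 38.3 CPM (29.9 to 48.2). Dendritic-like cells had Vegfa at 1.72 CPM (0.355 to 5.03) and Pgf at 13.8 CPM (8.82 to 20.5), with 23 of the 24 Pgf UMIs in brain. The 32 astrocyte-like cells held 5 Vegfa UMIs, 52.2 CPM (16.9 to 122), all in brain replicate 2. An unnamed cluster of 220 cells with MHC class II genes and leading monocyte genes, Retnla, Ly6c2, Ear2 and Thbs1, gave 25 Vegfa UMIs in brain replicate 1 (34.5 CPM, 22.3 to 50.9), 6 in brain replicate 2 (21.9 CPM, 8.04 to 47.7) and 0 in subcutaneous replicate 1, where 388250 UMIs allow up to 7.73 CPM. In both brain libraries the tumour level, 9.87 and 4.86 CPM, lay below the interval of this cluster.

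**Figure D4:**
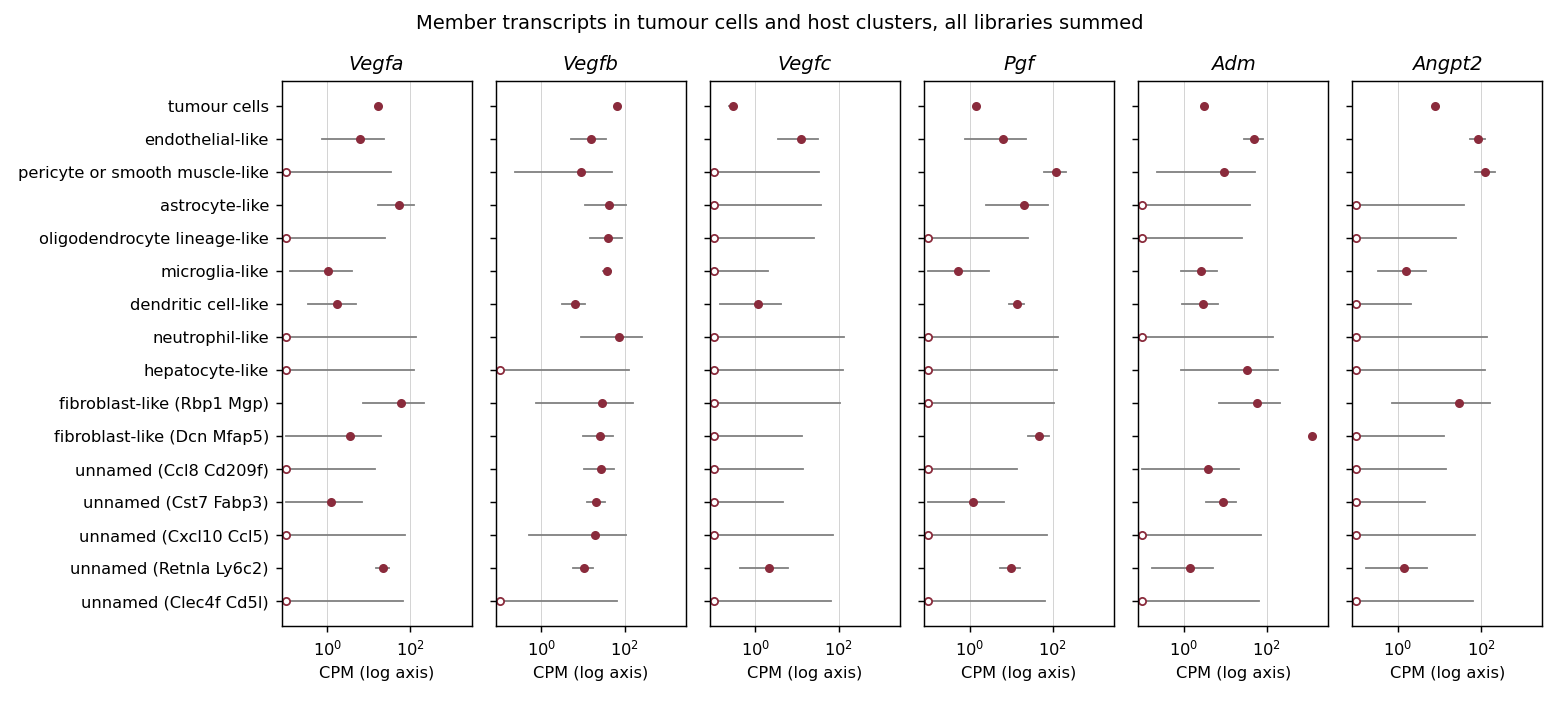
Level of each factor in tumour cells and host clusters, summed over libraries, in CPM on a log axis; points are values, grey lines exact 95% Poisson intervals, and open circles at the left edge mark 0 UMIs. Unnamed clusters carry their 2 leading genes. Adm stands at 1210.4 CPM in the Dcn and Mfap5 fibroblast-like cluster, and Angpt2 and Pgf are highest in the pericyte cluster.

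Most receptors of these factors were far higher in host than in tumour cells. Endothelial-like cells held Flt1 at 1029 CPM, Kdr at 366 CPM and Tie1 at 207 CPM, which are descriptions because these genes named the cluster, and beyond those Ramp2 at 1330 CPM (1206 to 1463), Tek at 156 CPM (116 to 206), Nrp1 at 100.1 CPM, Ramp3 at 97.0 CPM, Flt4 at 65.7 CPM and Calcrl at 37.5 CPM. In tumour cells Flt1, Kdr, Tek, Flt4 and Calcrl were each below 0.3 CPM and Ramp2 was at 0.890 CPM, while Nrp1 reached 5.62 CPM and Angpt1, the other main Tek ligand, 4.64 CPM. Pericyte or smooth muscle-like cells had Flt1 at 128 CPM (69.7 to 214) and Nrp1 at 155 CPM (90.2 to 248). Dendritic-like cells had Ramp3 at 234 CPM (211 to 257), astrocyte-like cells Ramp1 at 532 CPM (396 to 700.0), and fibroblast-like cells Ramp2 at 416 CPM and Ackr3, a decoy receptor that binds adrenomedullin, at 310 CPM.

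Tumour and host sums could be tested in the 3 libraries with at least 30 named host cells, both brain libraries and subcutaneous replicate 1. Adm was lower in tumour than in host cells by a log2 difference of -5.68 (SE 1.26, edgeR adjusted p = 0.0209), from 0.968 against 4.35 CPM, 0.258 against 17.1 CPM and 3.96 against 557 CPM. The last host value comes from the fibroblast-like cluster. Pgf was lower by -3.29 (SE 0.59, edgeR adjusted p = 0.00757), from 1.94 against 7.69, 2.12 against 17.1 and 1.49 against 28.0 CPM. Vegfb was higher in tumour cells by 1.45 (SE 0.24, edgeR adjusted p = 0.00573), from 63.6 against 25.4, 68.4 against 22.8 and 73.6 against 14.8 CPM. Vegfa, with a log2 difference of 1.38 (SE 0.72, edgeR adjusted p = 0.165), and Angpt2, with -0.81 (SE 0.39, edgeR adjusted p = 0.138), did not pass. Thus 3 of 5 members were called where 49.8% of all genes were. The host is a mixture. Microglia-like cells came from brain only, so a fit against them alone held both brain libraries without subcutaneous replicate 1. The set of libraries thus changed along with the host cells. In that fit Pgf turned to 1.69 (SE 1.48, edgeR adjusted p = 0.322) and Adm gave -2.14 (edgeR adjusted p = 0.0727). Vegfa passed there at 2.89 (edgeR adjusted p = 0.00295) and Angpt2 at 2.12 (edgeR adjusted p = 0.0191), both higher in tumour cells. Without brain replicate 2 the Adm call was lost (-5.37, edgeR adjusted p = 0.210) and Vegfa passed (2.24, edgeR adjusted p = 0.0398), and without subcutaneous replicate 1 Adm was -4.12 (edgeR adjusted p = 0.0251).

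Of the 67 listed genes, 56 were tested between tumour and host, and 36 were lower and 4 higher in tumour cells, a median log2 difference of -3.79 against 0.19 over all genes, where 23.8% were lower and 26.0% higher. The 4 higher ones were Calca (log2 4.35), Vash2 (3.93), Arnt2 (2.57) and Dll4 (1.76), which in tumour cells stood at 98.6 to 147, 38.3 to 47.9, 8.82 to 11.2 and 35.7 to 42.0 CPM. The named lower ones were Ackr3 (-10.05), the inhibitor Thbs2 (-8.59), the growth factor Pdgfd (-7.90), the protease inhibitor Timp1 (-7.59), Flt1 (-7.35), Serpinf1, which encodes the inhibitor PEDF (-7.08), the vasoconstrictor Edn1 (-6.71), Pdgfb (-6.68), the chemokine Cxcl12 (-6.58) and Angptl4 (-6.48). All 5 Vegf receptors and co-receptors were lower in tumour cells. Flt1, Kdr, Tie1 and Egfl7 are among the markers that named the endothelial-like cluster, so their differences, and through them the count of lower genes, were partly chosen. Most of these genes were under 1 CPM in tumour cells, so the size of the fitted value depends on the prior count.

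The balance of tumour and host supply differed by factor and library. Named host cells gave 12.1 and 2.22% of all UMIs in the brain libraries and 1.43% in subcutaneous replicate 1, and at most 0.214% in each of the other 5. They gave 38.2% (22.2 to 56.4, 13 of 34 UMIs) and 60.0% (38.7 to 78.9, 15 of 25) of Adm in brain and 67.2% (62.9 to 71.3, 338 of 503) in subcutaneous replicate 1. For Pgf the shares were 35.4% (23 of 65), 15.5% (15 of 97) and 21.5% (17 of 79), and for Angpt2 13.0% (27 of 207), 3.83% (9 of 235) and 2.79% (6 of 215). For Vegfa they were 3.17% (1.28 to 6.42), 3.09% (1.14 to 6.61) and 0.134% (0.0162 to 0.483). Intervals are exact Clopper-Pearson 95% intervals. They take UMIs as independent, so they are too narrow where 1 cell holds many of them. A single cell held 7 of the 13 host Adm UMIs of brain replicate 1, and another 7 of the 15 of brain replicate 2. Likewise 1 cell held 11 of the 17 host Pgf UMIs of subcutaneous replicate 1, and 1 cell 15 of the 27 host Angpt2 UMIs of brain replicate 1. With every cell under the tumour threshold counted as host, unnamed clusters included, the brain shares of Vegfa were 13.7% (34 of 248) and 6.0% (12 of 200). In the liver libraries the named host shares of Vegfa, Pgf and Adm were 0 to 2.08%.

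**Figure D5:**
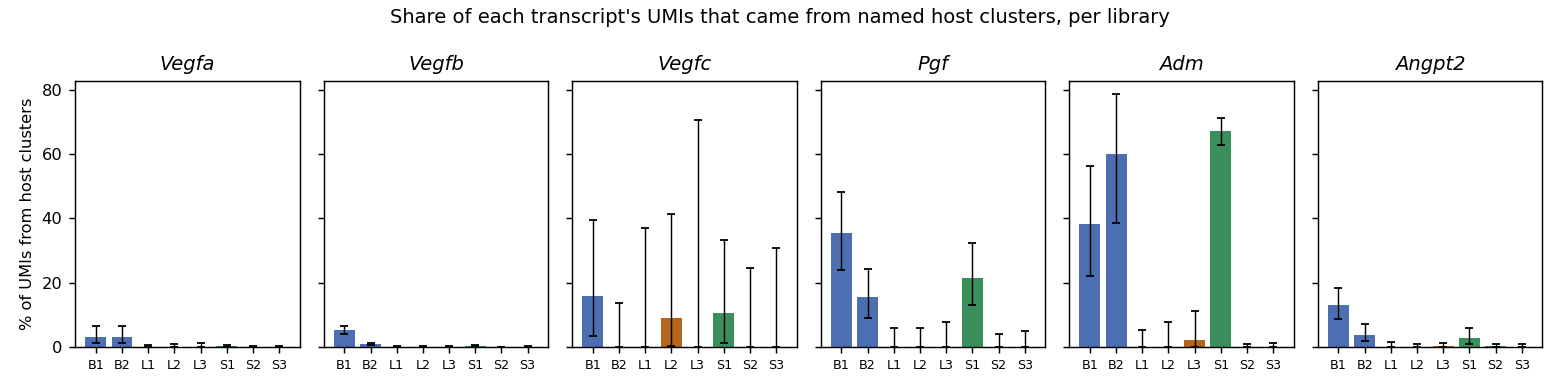
Share of each factor's UMIs that came from named host clusters, in % (vertical axis, from 0), per library (B brain, L liver, S subcutaneous, with the replicate number). Bars are shares, and lines are exact 95% binomial intervals that take UMIs as independent. Adm reaches 60.0% in brain replicate 2 and 67.2% in subcutaneous replicate 1, while Vegfa stays at or below 3.17%.

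Exact permutation tests of these shares over 560 assignments to the 3 sites, unadjusted for 6 genes, gave p = 0.025 for Angpt2, 0.0357 for Vegfa and 0.0357 for Vegfb, each highest in brain, and 0.107 for Pgf, 0.143 for Adm and 0.786 for Vegfc. The host share of all UMIs gave an exact permutation p of 0.0357 in the same test, and 69.1% of 13531 genes with a UMI in every library passed it, so 3 of 6 is no result about these factors. In brain replicate 1 the Vegfa share of 3.17% was below the 12.1% of all UMIs that came from host cells. Brain replicate 2 went the other way, at 3.09% (1.14 to 6.61) against 2.22%. With every cell under the tumour threshold counted as host, the pairs were 13.7% (9.68 to 18.6) against 17.8% and 6.0% (3.14 to 10.2) against 3.63%. The site means of the Angpt2 share were 8.44, 0.123 and 0.985% in brain, liver and subcutaneous tumours, and those of Vegfa 3.13, 0 and 0.0447%. Leaving out either brain library or any 1 liver library ended all 3 calls, at exact permutation p from 0.0667 to 0.143. Without subcutaneous replicate 1 only Vegfb passed (exact permutation p = 0.00952), and without replicate 2 or 3 Vegfb did not (exact permutation p = 0.0571). The share weighs level and number of cells together, and the sort for healthy single cells and the preparation of each organ can set the number of host cells, so a share is not a rate of supply in the tissue.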

How the data were processed

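The deposited files hold raw UMI counts per gene and cell for 8 libraries made with 10x Genomics 3′ chemistry, per the labels' protocols. The authors made these counts with Cell Ranger 3.0.0, per the file headers, and mm10 and STAR stand in the submitters' processing notes. Members and gene lists were chosen with earlier results of these data known. Cells needed 500 detected genes and no more than 10% of UMIs from mitochondrial genes. Cells at or above 0.2% eGFP and Mycl were tumour cells. The other cells were clustered with scanpy 1.11.5 (2000 variable genes, 20 components, 15 neighbours, Leiden resolution 1) and named when at least 3 markers of a type were detected in 20% of cells. Clusters whose leading genes went against the name, or with shallow cells and no leading marker, stayed unnamed, among them 4 clusters with C1q macrophage markers. No doublet caller was run. Depth, 21689091 to 62047017 tumour UMIs per library, limits precision for Vegfc, Pgf and Adm.

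Counts were summed per library, and tested with edgeR 4.0.16 (quasi-likelihood, TMM, filterByExpr, Benjamini-Hochberg over all genes, threshold 0.05) in R 4.3.3: sites in 1 fit of all 8 libraries, hypoxia-high against other tumour cells and tumour against host cells with the library as a block. Single values were compared by exact two-sided permutation of libraries. The scripts were tested on simulated data. No pair of libraries within a site was a duplicate: the lowest chi-square per gene was 6.13. Pairs across sites were not compared in this way. DESeq2 1.42.0, other size factors, filters, thresholds, class sizes, lists and left-out libraries were the alternatives. Named genes are all members, and of the lists at most 10 per direction past the threshold with a mean of at least 5 CPM, by size of fold change. The summed level of the tumour marker list is not reported here.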

Additional observations from a re-analysis of the deposited data

Results flagged for a closer look

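In 6 cases, the difference between sites in how far a factor was raised in hypoxia-high tumour cells passed the interaction test of edgeR. Over all genes, 0.834% passed between brain and liver, 16.4% between brain and subcutaneous and 23.4% between liver and subcutaneous tumours. The log2 difference of Adm was larger in brain than in liver by 2.43, and that of Vegfa by 1.48. Between liver and subcutaneous tumours the interaction was -1.22 for Adm, -1.14 for Vegfa and -1.80 for Pgf, so each was raised less in liver. Between brain and subcutaneous tumours it was -1.36 for Pgf. The Adm values in brain rest on 24 UMIs in hypoxia-high and 6 in other cells.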

How the results depend on the processing

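Of the single-gene values recomputed under an alternative, 620 kept their side of the threshold, 62 lost it and 14 gained it. A further 1, called in the main fit, changed sign. Pgf between tumour and host cells was 1.69, against -3.29, when the host was microglia-like cells only, in the brain libraries (no macrophage-like cluster was named). A change of sign was counted only for called values, and some uncalled ones changed sign too. Angpt2 between brain and liver ran from -0.56 to 0.06 with single libraries left out. Of 18 member contrasts between sites, 4 were called, and 2 to 6 when single libraries were left out, 2 without brain replicate 2 or any 1 liver library. Of 5 members, 4 were called between hypoxia classes (3 to 4 with libraries left out) and 3 between tumour and host (3 to 3). Over all genes, 21.8, 15.1 and 2.83% were called between sites, 34.9% between hypoxia classes and 49.8% between tumour and host. The site calls over all genes also moved with the libraries. With 1 liver or subcutaneous library left out, 1535 to 4557 genes were called between brain and liver. The range was 659 to 4754 between brain and subcutaneous tumours and 33 to 1024 between liver and subcutaneous tumours, of 13856 to 13931 tested. For the contrasts of the hypoxia-high difference between sites the shares of all genes were 0.834, 16.4 and 23.4%. Of 15 contrasts of the hypoxia-high difference between sites, 6 were called, 4 to 5 with libraries left out and 3 with the list without glycolytic enzymes; the cause was not tested. Of 6 host shares, 3 passed (69.1% of all genes did), and 0 to 2 with a library left out, where fewer assignments raise the smallest p. The hypoxia list level under the skin exceeded the mean of the other sites by 2349 CPM, 2018 to 2626 with libraries left out.

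Deviations of same-numbered libraries from their site means correlated at -0.25 to 0.26, and those of differently numbered ones at -0.27 to 0.30. With so few libraries per site the deviations cancel within a site, so these values cannot decide whether replicate numbers pair the libraries. With the replicate block, 4 of the 18 contrasts were again called, but not the same ones: Vegfa passed between brain and liver (-0.65, edgeR adjusted p = 0.0321) and between liver and subcutaneous tumours (-1.51, edgeR adjusted p = 0.00448), while Adm between liver and subcutaneous tumours (edgeR adjusted p = 0.0604) and Vegfc between brain and liver (edgeR adjusted p = 0.0569) did not.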

Other observations

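Among cells below the tumour threshold, 320 fell in 2 clusters with the neuroendocrine markers Chga and Uchl1 and entered neither compartment. They held Vegfa at 21.0 CPM (exact 95% Poisson interval 14.6 to 29.4, 34 UMIs), Vegfb at 35.9 CPM (27.3 to 46.4) and Vegfc at 3.09 CPM (1.00 to 7.22, 5 UMIs). Of the 34 Vegfa UMIs, 33 lay in the 159 subcutaneous cells, at 39.1 CPM (26.9 to 54.9). A cluster of 8 brain cells led by Cspg5, C1ql1 and Olig1, with only 2 markers of the oligodendrocyte lineage detected and so unnamed, held Adm at 202 CPM (65.5 to 471, 5 UMIs in 3 cells).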
